A study of Mus musculus with 12 samples.

Results

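Macrophage and myeloid identity genes are 35 of the 25124 genes listed for interscapular brown adipose tissue (BAT), chosen by symbol because they mark macrophages and related white cells. The choice was made with earlier results of these data known, so the shares of all genes beside member counts are descriptive only. The 35 genes were sorted by role into 23 pan-macrophage and general myeloid genes, 7 genes of resident macrophage subsets, 2 monocyte genes and 3 neutrophil genes. BAT was taken from male mice aged 10 weeks, either WT or deficient in Txnip (thioredoxin-interacting protein) and written Txnip-/-, on a C57B/6J background. The sources describe no tissue-specific driver for the deletion, so Txnip status is not separated between fat cells and blood or immune cells. Mice were kept for 1 week at 23 °C, room temperature (RT), or at 30 °C, thermoneutrality (TN), which gave 4 groups of 3 libraries: WT at RT (RT WT), WT at TN (TN WT), and Txnip-/- at each temperature (RT Txnip-/- and TN Txnip-/-). The labels number these libraries as replicates and the methods call them triplicates, and neither states that each came from a mouse of its own, so the p-values measure the spread between libraries. Levels are given as TPM, a measure of transcript abundance scaled for transcript length and library size, in the order of replicates 1, 2 and 3.

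Macrophages are the phagocytes that live in every tissue. Some are seeded early and keep themselves, others arrive as blood monocytes, and both kinds depend on signals through the receptor Csf1r and on the transcription factor PU.1, the product of Spi1. In fat they take up dying adipocytes and lipid, and their surface receptors, Fc receptors, lysozymes and oxidase serve to bind, engulf and digest material. In whole tissue, fewer cells of a type and less RNA per cell cannot be told apart.

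In the targeted gene, the libraries followed their labels: Txnip was between 563.6 and 693.9 TPM in RT WT, 24.8 and 35.4 in RT Txnip-/-, 1071.8 and 1237.8 in TN WT, and 10.5 and 14.4 in TN Txnip-/-. The tables give between 29.93 M and 47.44 M reads per library. A library that stands apart in what follows is TN WT replicate 1, the lowest TN library in most myeloid genes and the highest TN WT library in Cd163, Lyve1 and Folr2, and RT Txnip-/- replicate 2 was the lowest RT Txnip-/- library in most of them. Member counts without the first are given with the results they touch. Brown adipocyte markers, all 7 detected in every library, had summed levels of 11434 to 12066 TPM in RT WT, 8642 to 10861 in RT Txnip-/-, 6885 to 7755 in TN WT and 3781 to 4475 in TN Txnip-/-, with Ucp1 from 154 to 4366 TPM and Elovl3 from 0.202 to 35.1 TPM.

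Of the 35 genes, 23 were called higher in Txnip-/- than in WT at TN and 8 at RT, and 27 were called higher at TN than at RT in WT and 28 in Txnip-/-. The resident-subset genes were split, with Mrc1 and Clec10a called higher in Txnip-/- at TN and Cd163 and Lyve1 called in no comparison. Tests used limma on log2(TPM + 1) for genes with a mean of at least 1 TPM, and a call needed an adjusted p under 0.05 and a fold past the limits of the study's methods. Each difference is Txnip-/- minus WT, or TN minus RT, on that log2 scale, and adjusted p-values are those of limma over all genes tested. At TN, 32 of the 35 members passed the filter on low values and 23 were called higher in Txnip-/-, beside 6.49% of all genes tested. The median difference of the tested members was 1.05 on the log2 scale and that of all genes tested was 0.01. At RT, 24 members passed and 8 were called higher, beside 0.76% of all genes, with medians of 0.70 and 0.03. From RT to TN, 27 of 31 tested members were called higher in WT (31.4% of all genes) and 28 of 31 in Txnip-/- (30.9% of all genes), with median differences of 1.10 and 1.56 beside 0.18 and 0.15 for all genes. In limma, 0 members were called lower, and 0 were lower at an unadjusted p under 0.05, in these 4 comparisons. In the order RT genotype, TN genotype, temperature in WT and temperature in Txnip-/-, 0.726%, 2.17%, 6.39% and 8.27% of all genes tested were called lower, and 0 of the 35 had all first-group libraries below all second-group libraries, beside 4.78%, 8.37%, 6.46% and 8.97% of all listed genes. Counting all 35, the libraries did not overlap and were higher in 21 members for Txnip-/- against WT at RT (10.4% of all listed genes), 27 at TN (11.7%), 30 for TN against RT in WT (35.1%) and 29 in Txnip-/- (32.8%). The members that failed the filter at RT were Msr1, Fcgr1, Itgam, Ncf1, Timd4, Clec4f, Ly6c2, Plac8, S100a8, S100a9 and Ly6g, and at TN only Timd4, Clec4f and Ly6g failed it. Ms4a7, Lyz1 and Cybb passed at RT with a WT mean under 1 TPM, so they entered the test through the level in Txnip-/-. Lyz1 was not called there, and the RT calls of Ms4a7 and Cybb lend no support. Of the 21 members with means of at least 1 TPM in both genotypes, 6 were called at RT, with a median of 0.66, and all 32 members tested at TN had such means. Between temperatures, 10 of the 27 members called in WT (Fcgr1, Ms4a7, Itgam, Lyz1, Ncf1, Cybb, Ly6c2, Plac8, S100a8 and S100a9) and 4 of the 28 called in Txnip-/- (Fcgr1, Itgam, Plac8 and S100a9) had an RT mean under 1 TPM and passed only through groups where they were higher, so their calls lend no support either. Without these, 17 of 21 were called in WT and 24 of 27 in Txnip-/-.

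**Figure D1:**
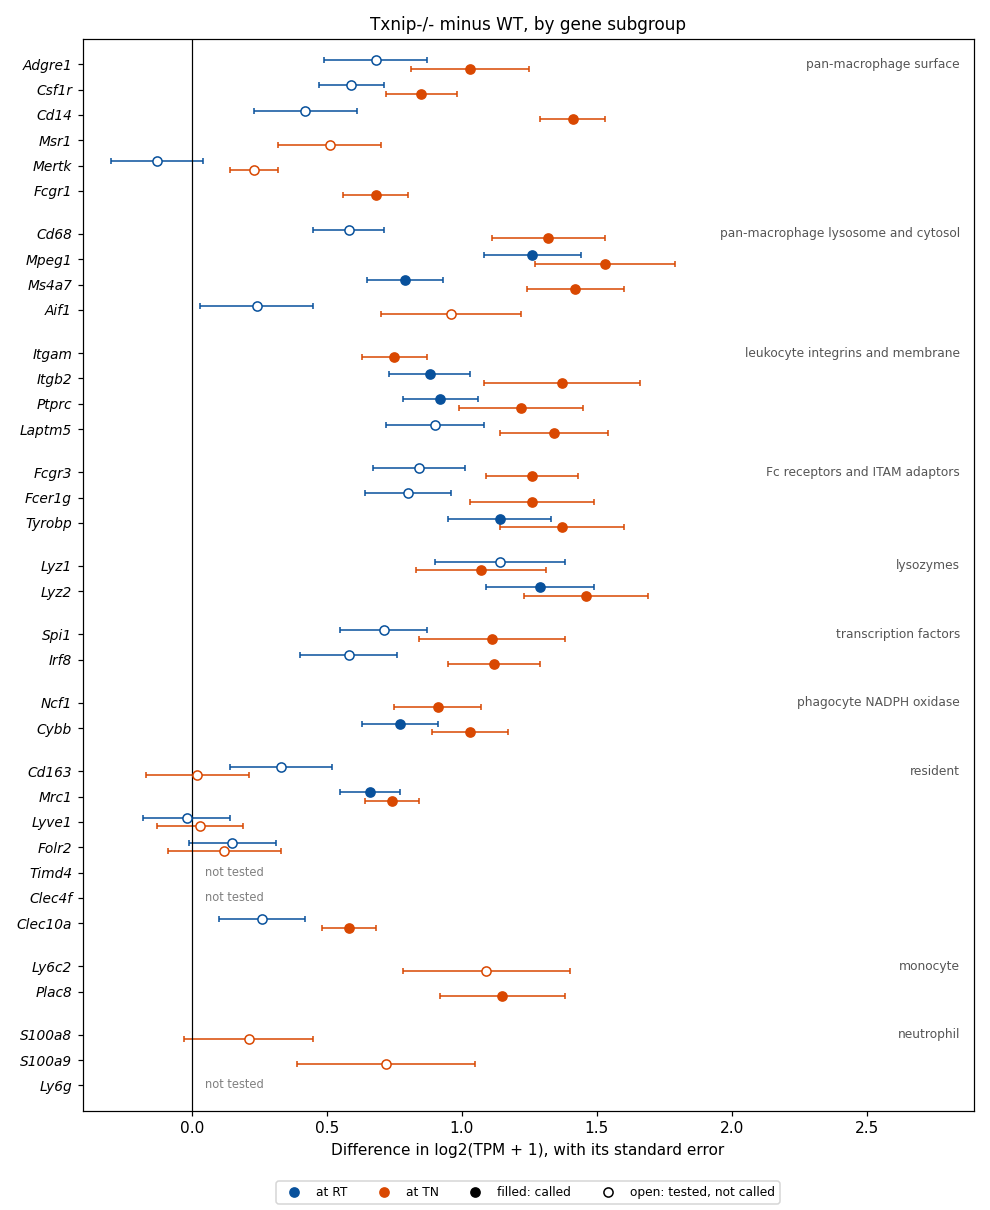
Difference between Txnip-/- and WT for each member, as log2(TPM + 1) with its standard error, at RT (blue) and TN (orange), grouped by role, with filled points for called genes. The 23 called genes at TN and the 8 at RT lie to the right of 0, and Cd163, Lyve1 and Folr2 lie near 0 at TN.

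The 250 bases before the start site of 6 members are shown from RefSeq promoters of GRCm38.p6, 5′ to 3′ on the gene's own strand, because PU.1 is known to bind sites with the core GAGGAA and because Lyz1 and Lyz2 are neighbours that resemble each other. A promoter was found for 26 of the 35 members, counted over 300 bases, 250 before and 50 after the start. GAGGAA on either strand, which a longer form GAGGAAGT contains, occurred in 14 of these 26 genes (53.8%) and in 8446 of 27025 genes with a promoter (31.3%), and GAGGAAGT in 3 of 26 (11.5%: Ly6c2, Ly6g and S100a8) and in 997 of all (3.7%). A match is a description of letters and not a site. Cd68 (chr11:69666171-69666420, minus strand) had 1 match in the stretch shown, Laptm5 (chr4:130913066-130913315, plus strand) 1 and Mrc1 (chr2:14229164-14229413, plus strand) 3, and Cd163 (chr6:124304401-124304650, plus strand) 0, with matches in capitals (TTCCTC is the other strand of GAGGAA).
Cd68: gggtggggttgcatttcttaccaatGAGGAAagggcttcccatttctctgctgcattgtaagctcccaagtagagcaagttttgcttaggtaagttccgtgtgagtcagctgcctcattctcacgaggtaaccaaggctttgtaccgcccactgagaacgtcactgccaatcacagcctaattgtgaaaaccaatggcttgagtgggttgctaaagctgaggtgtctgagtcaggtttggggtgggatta
Laptm5: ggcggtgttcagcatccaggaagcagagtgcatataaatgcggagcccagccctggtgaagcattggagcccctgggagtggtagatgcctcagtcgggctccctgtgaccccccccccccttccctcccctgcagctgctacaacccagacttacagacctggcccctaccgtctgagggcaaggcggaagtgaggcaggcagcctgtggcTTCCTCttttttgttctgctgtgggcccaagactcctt
Mrc1: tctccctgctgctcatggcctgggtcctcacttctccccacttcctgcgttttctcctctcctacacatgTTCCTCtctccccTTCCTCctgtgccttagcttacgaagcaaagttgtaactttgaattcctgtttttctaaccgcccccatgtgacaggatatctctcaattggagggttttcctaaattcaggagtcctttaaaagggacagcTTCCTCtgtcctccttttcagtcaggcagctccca
Cd163: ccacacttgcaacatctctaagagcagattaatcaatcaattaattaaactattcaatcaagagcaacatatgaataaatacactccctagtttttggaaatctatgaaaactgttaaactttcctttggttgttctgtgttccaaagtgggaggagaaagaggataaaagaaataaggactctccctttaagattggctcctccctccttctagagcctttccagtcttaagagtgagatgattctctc
Lyz1 (chr10:117292869-117293118, minus strand) and Lyz2 (chr10:117282273-117282522, minus strand) hold 0 matches, and 5522 bases lie between the 2 genes on chromosome 10. Over the 300 bases of the window their longest shared run is 86 bases, of which capitals mark the 50 before the start site and the other 36 follow it, and 60.8% of the 250 bases are identical with no gap.
Lyz1: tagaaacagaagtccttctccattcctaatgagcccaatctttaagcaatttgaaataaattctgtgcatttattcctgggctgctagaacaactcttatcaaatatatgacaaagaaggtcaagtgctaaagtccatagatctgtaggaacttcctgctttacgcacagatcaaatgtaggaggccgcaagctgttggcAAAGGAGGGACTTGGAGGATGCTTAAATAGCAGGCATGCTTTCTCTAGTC
Lyz2: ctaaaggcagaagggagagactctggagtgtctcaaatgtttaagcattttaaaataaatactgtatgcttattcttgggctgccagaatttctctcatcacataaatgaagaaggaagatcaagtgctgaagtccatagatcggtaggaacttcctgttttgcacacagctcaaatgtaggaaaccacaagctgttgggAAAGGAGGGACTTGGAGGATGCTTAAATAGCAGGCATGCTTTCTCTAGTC

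Of the surface receptors of macrophages, 4 of 6 were called higher in Txnip-/- at TN and 0 of 4 tested were called in limma at RT, 2 of them with an unadjusted p under 0.05. Adgre1, the F4/80 antigen that defines mouse macrophages, was at 2.08, 2.09 and 1.96 TPM in RT WT and 4.79, 2.58 and 4.64 in RT Txnip-/-. At TN, Adgre1 was at 3.44, 7.0 and 6.996 TPM in WT and 12.9, 13.2 and 11.4 in Txnip-/-. Every group of Adgre1 libraries stood apart from RT WT, and TN WT replicate 1 lay within the RT Txnip-/- range. Its difference between genotypes was 1.03 (SE 0.22, adjusted p = 0.0255) at TN and 0.68 (SE 0.19, adjusted p = 0.137) at RT. Csf1r, the receptor for the growth factors Csf1 and Il34, was at 4.42, 4.83 and 4.601 TPM in RT WT and 8.16, 6.01 and 8.32 in RT Txnip-/-. At TN, Csf1r was at 9.89, 10.98 and 12.3 TPM in WT and 19.9, 24.8 and 17.99 in Txnip-/-. The 4 groups of Csf1r did not overlap, in ascending order from WT to Txnip-/- at RT and then from WT to Txnip-/- at TN, and the genotype difference was 0.85 (SE 0.13, adjusted p = 0.00871) at TN and 0.59 (SE 0.12, adjusted p = 0.0736) at RT. Cd14, a co-receptor for bacterial lipopolysaccharide, was at 3.26, 3.27 and 3.82 TPM in RT WT and 7.07, 4.26 and 3.896 in RT Txnip-/-. At TN, Cd14 was at 3.98, 5.04 and 5.56 TPM in WT and 14.3, 16.01 and 13.3 in Txnip-/-. TN Txnip-/- lay above all other libraries, by 1.41 (SE 0.12, adjusted p = 0.00235) over TN WT, while RT Txnip-/- and TN WT overlapped and TN WT was 0.39 (SE 0.17, adjusted p = 0.0728) above RT WT, not called. Fcgr1, the high-affinity receptor for IgG, was at 0.294, 0.282 and 0.513 TPM in RT WT and 0.656, 0.572 and 0.906 in RT Txnip-/-. At TN, Fcgr1 was at 0.83, 1.18 and 1.18 TPM in WT and 2.45, 2.48 and 2.003 in Txnip-/-. This low gene was not tested at RT, where its genotypes were apart, and differed by 0.68 (SE 0.12, adjusted p = 0.0161) at TN. Msr1, a scavenger receptor, had group means of 0.27 ± 0.0487, 0.316 ± 0.0236, 1.04 ± 0.45 and 1.88 ± 0.462 TPM in RT WT, RT Txnip-/-, TN WT and then TN Txnip-/- (SD, n = 3), and its TN difference of 0.51 (SE 0.19, adjusted p = 0.133) was not called. Mertk, a receptor for dying cells, had means of 5.04 ± 1.1, 4.5 ± 0.913, 4.6 ± 0.317 and 5.55 ± 0.399 TPM in that order, was called in no comparison and differed by 0.23 (SE 0.09, adjusted p = 0.151) at TN. Without TN Txnip-/- replicate 1 or replicate 2, Adgre1 and Fcgr1 were not called between genotypes at TN, and Fcgr1 was not called between temperatures, since its mean over the libraries left fell below the filter.

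**Figure D2:**
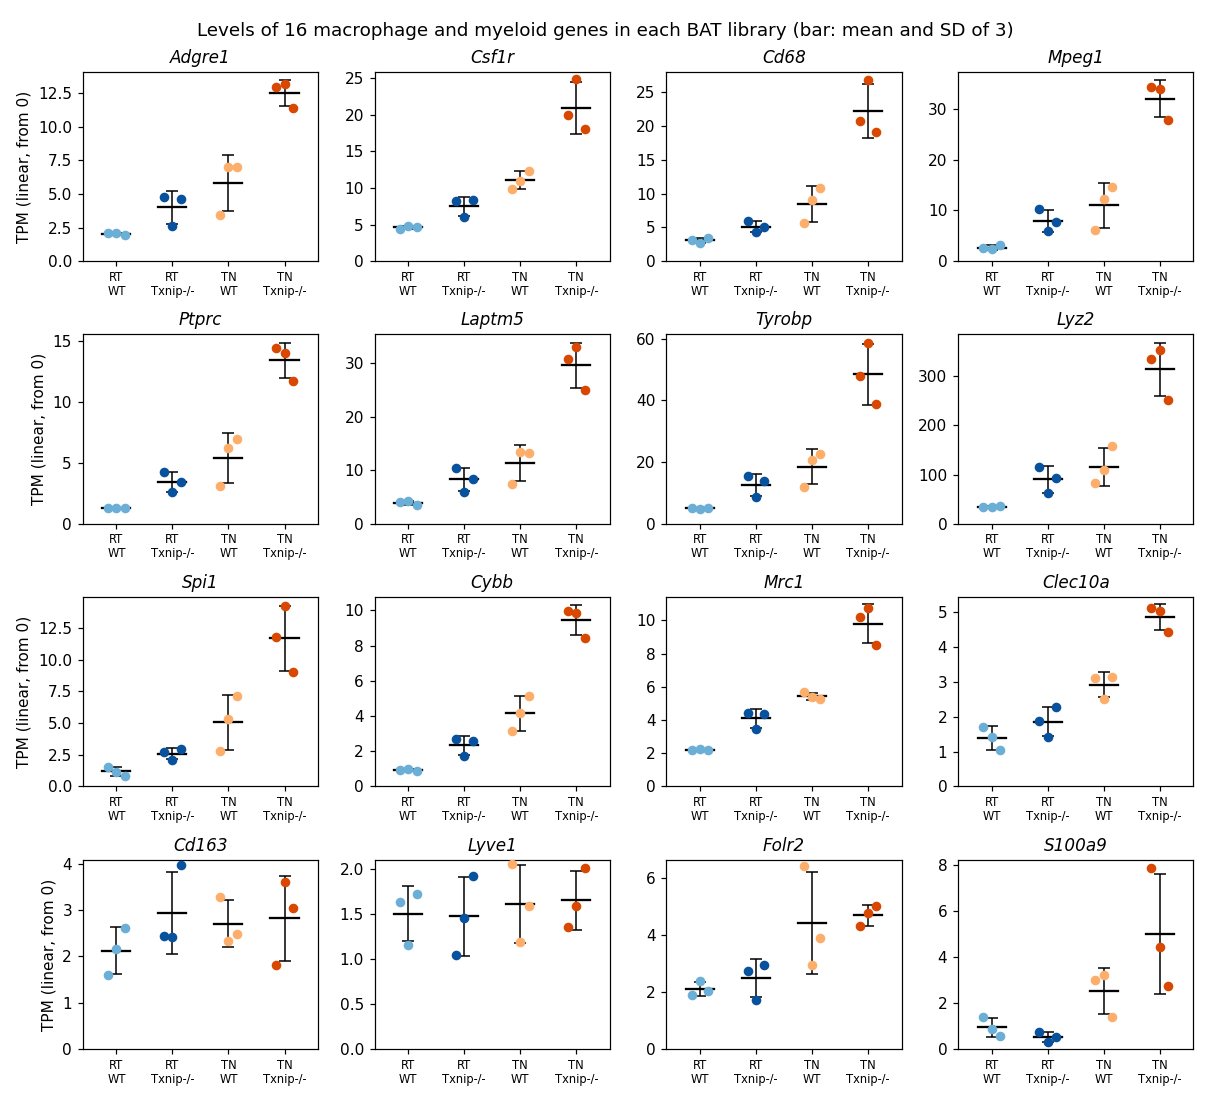
TPM of 16 members in each of the 12 libraries on linear axes from 0, with the mean and SD of 3 libraries per group. Lyz2 lies between 33.6 and 36.9 TPM in RT WT and between 252 and 354 in TN Txnip-/-, and Cd163 and Lyve1 overlap across the 4 groups.

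Of the lysosomal and cytosolic markers, 3 of 4 were called at TN and 2 of 4 at RT, and their median difference at TN was 1.37 on the log2 scale, beside 0.76 for the surface receptors. Cd68, a lysosomal membrane protein used to stain macrophages, was at 3.06, 2.72 and 3.48 TPM in RT WT and 5.98, 4.299 and 5.098 in RT Txnip-/-. At TN, Cd68 was at 5.58, 9.07 and 10.8 TPM in WT and 20.8, 26.8 and 19.1 in Txnip-/-. TN Txnip-/- stood above all other libraries, by 1.32 (SE 0.21, adjusted p = 0.011) over TN WT, and the RT difference of 0.58 (SE 0.13, adjusted p = 0.0832) was not called. Mpeg1, the pore-forming perforin-2 of phagocytes, was at 2.52, 2.37 and 3.17 TPM in RT WT and 10.3, 5.88 and 7.74 in RT Txnip-/-. At TN, Mpeg1 was at 6.15, 12.2 and 14.7 TPM in WT and 34.3, 34 and 27.9 in Txnip-/-. Mpeg1 was called at both temperatures, 1.26 (SE 0.18, adjusted p = 0.0284) at RT and 1.53 (SE 0.26, adjusted p = 0.013) at TN, and the ranges of RT Txnip-/- and TN WT overlapped. Ms4a7, a membrane protein of macrophages, was at 0.37, 0.686 and 0.564 TPM in RT WT and 2.01, 1.35 and 1.62 in RT Txnip-/-. At TN, Ms4a7 was at 1.49, 2.66 and 3.02 TPM in WT and 8.86, 6.8 and 8.21 in Txnip-/-. Ms4a7, which passed the RT filter only through Txnip-/-, differed between genotypes by 0.79 (SE 0.14, adjusted p = 0.0472) at RT and 1.42 (SE 0.18, adjusted p = 0.00608) at TN, and its genotypes did not overlap at either temperature. Aif1, the actin-binding protein known as Iba1, was at 1.67, 0.791 and 1.23 TPM in RT WT and 1.36, 1.198 and 2.38 in RT Txnip-/-. At TN, Aif1 was at 2.33, 4.79 and 4.32 TPM in WT and 8.37, 11.02 and 5.63 in Txnip-/-. Its genotypes overlapped at RT and did not at TN, where the difference was 0.96 (SE 0.26, adjusted p = 0.0582) and not called. Mpeg1 was not called at TN without TN Txnip-/- replicate 1, and Aif1 was called without TN Txnip-/- replicate 3.

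Of the integrins and membrane proteins shared by white cells, all 4 were called at TN and 2 of 3 tested at RT. Ptprc, the CD45 phosphatase carried by all white cells and not by macrophages alone, was at 1.31, 1.3 and 1.33 TPM in RT WT and 4.204, 2.62 and 3.42 in RT Txnip-/-. At TN, Ptprc was at 3.104, 6.18 and 6.96 TPM in WT and 14.4, 13.97 and 11.7 in Txnip-/-. Ptprc differed between genotypes by 0.92 (SE 0.14, adjusted p = 0.0326) at RT and 1.22 (SE 0.23, adjusted p = 0.0184) at TN, and its genotypes did not overlap at either temperature. The 3 RT WT libraries of Ptprc lay between 1.30 and 1.33 TPM, and TN WT replicate 1 lay within the RT Txnip-/- range. Itgb2, the beta chain CD18 of the white-cell integrins, was at 1.16, 1.91 and 1.35 TPM in RT WT and 3.93, 2.83 and 3.83 in RT Txnip-/-. At TN, Itgb2 was at 3.31, 6.63 and 8.67 TPM in WT and 17.9, 20.4 and 12.6 in Txnip-/-. Itgb2 differed by 0.88 (SE 0.15, adjusted p = 0.0472) at RT and 1.37 (SE 0.29, adjusted p = 0.0262) at TN, and its genotypes did not overlap at either temperature. Itgam, the alpha chain CD11b that pairs with it, was at 0.509, 0.489 and 0.804 TPM in RT WT and 1.17, 0.748 and 0.855 in RT Txnip-/-. At TN, Itgam was at 1.62, 2.11 and 2.17 TPM in WT and 4.38, 4.17 and 3.44 in Txnip-/-. Its genotypes overlapped at RT and were apart at TN by 0.75 (SE 0.12, adjusted p = 0.0108), but 71.7% of its 75-base windows also occur in the overlapping gene Gm49368, so its level is uncertain. Laptm5, a lysosomal protein of blood cells, was at 4.005, 4.18 and 3.49 TPM in RT WT and 10.4, 5.98 and 8.44 in RT Txnip-/-. At TN, Laptm5 was at 7.48, 13.3 and 13.2 TPM in WT and 30.8, 33.1 and 24.9 in Txnip-/-. It differed by 1.34 (SE 0.20, adjusted p = 0.00961) at TN and 0.90 (SE 0.18, adjusted p = 0.0618) at RT, where the groups were apart without a call. Ptprc and Itgb2 lost the TN call without TN Txnip-/- replicate 1 or 2, and Itgb2 also without TN WT replicate 2.

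Fc receptors and their adaptors were called higher in Txnip-/- in 3 of 3 genes at TN and in 1 of 3 at RT. Tyrobp (DAP12), an adaptor that carries an ITAM, the motif by which many myeloid receptors signal, was at 5.21, 4.83 and 4.99 TPM in RT WT and 15.3, 8.59 and 13.8 in RT Txnip-/-. At TN, Tyrobp was at 12.02, 20.6 and 22.7 TPM in WT and 47.8, 58.6 and 38.7 in Txnip-/-. It was the most abundant member after Lyz2 in TN Txnip-/-, and the genotype difference was 1.14 (SE 0.19, adjusted p = 0.0415) at RT and 1.37 (SE 0.23, adjusted p = 0.013) at TN. Fcer1g, the common gamma chain of Fc receptors, was at 4.46, 6.15 and 5.04 TPM in RT WT and 11.97, 7.94 and 9.77 in RT Txnip-/-. At TN, Fcer1g was at 9.75, 16.9 and 17.9 TPM in WT and 39.1, 41.9 and 28.2 in Txnip-/-. Fcer1g was apart between genotypes at TN by 1.26 (SE 0.23, adjusted p = 0.0156). Fcgr3, a low-affinity IgG receptor that signals through that chain, was at 2.64, 3.07 and 3.97 TPM in RT WT and 7.11, 5.02 and 7.68 in RT Txnip-/-. At TN, Fcgr3 was at 5.09, 7.14 and 8.66 TPM in WT and 18.95, 19.2 and 15.2 in Txnip-/-. Fcgr3 was apart at TN by 1.26 (SE 0.17, adjusted p = 0.00703). For Fcer1g and Fcgr3 the genotypes were also apart at RT, by 0.80 (SE 0.16, adjusted p = 0.0625) and 0.84 (SE 0.17, adjusted p = 0.0671), neither called. Of the Fcgr3 windows, 7.4% also occur in Fcgr2b. Fcer1g was not called at TN without TN Txnip-/- replicate 1 or 2.

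Lysozymes, which cut bacterial cell walls, held the highest member of all. Lyz2, the lysozyme of macrophages, was at 33.6, 34.7 and 36.9 TPM in RT WT and 115, 61.7 and 93.4 in RT Txnip-/-. At TN, Lyz2 was at 82.2, 109 and 158 TPM in WT and 336, 354 and 252 in Txnip-/-. RT WT was the lowest and TN Txnip-/- the highest group, RT Txnip-/- and TN WT overlapped, and the genotype difference was 1.29 (SE 0.20, adjusted p = 0.0338) at RT and 1.46 (SE 0.23, adjusted p = 0.00998) at TN. Lyz1, best known from gut Paneth cells and tested at RT only through its Txnip-/- level, was at 0.709, 0.434 and 0.64 TPM in RT WT and 3.38, 1.34 and 3.196 in RT Txnip-/-. At TN, Lyz1 was at 2.89, 2.21 and 4.47 TPM in WT and 6.78, 10.7 and 5.98 in Txnip-/-. Its genotypes were apart at both temperatures, with 1.14 (SE 0.24, adjusted p = 0.0736) at RT, not called, and 1.07 (SE 0.24, adjusted p = 0.0314) at TN. Of the 75-base windows, 6.2% of Lyz1 and 6.0% of Lyz2 occur in both, so how reads were split between them is uncertain. Lyz1 lost the TN call without TN WT replicate 1 or 2 or TN Txnip-/- replicate 1 or 2.

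Both transcription factors were called at TN and 0 of 2 in limma at RT, where both had an unadjusted p under 0.05. Spi1, which encodes PU.1, was at 1.57, 1.16 and 0.834 TPM in RT WT and 2.71, 2.08 and 2.94 in RT Txnip-/-. At TN, Spi1 was at 2.79, 5.29 and 7.11 TPM in WT and 11.8, 14.2 and 9.04 in Txnip-/-. The genotypes did not overlap at either temperature, with 1.11 (SE 0.27, adjusted p = 0.0406) at TN and 0.71 (SE 0.16, adjusted p = 0.0832) at RT. Irf8, a partner of PU.1 in monocyte and dendritic cell development, was at 1.07, 1.03 and 1.95 TPM in RT WT and 3.01, 1.97 and 2.51 in RT Txnip-/-. At TN, Irf8 was at 3.15, 5.004 and 5.83 TPM in WT and 10.9, 12.2 and 10.1 in Txnip-/-. The 4 groups of Irf8 did not overlap, with 1.12 (SE 0.17, adjusted p = 0.00998) at TN and 0.58 (SE 0.18, adjusted p = 0.184) at RT, where it was not called. Spi1 was not called at TN without TN WT replicate 1 or 2 or TN Txnip-/- replicate 1 or 2, and Irf8 was called in each of these.

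The NADPH oxidase makes superoxide in phagocytes. Cybb, its membrane-bound catalytic subunit on chromosome X, was at 0.914, 0.999 and 0.899 TPM in RT WT and 2.69, 1.74 and 2.56 in RT Txnip-/-. At TN, Cybb was at 3.15, 4.18 and 5.13 TPM in WT and 9.998, 9.86 and 8.46 in Txnip-/-. The 4 groups of Cybb, which passed the RT filter only through Txnip-/-, did not overlap, with 0.77 (SE 0.14, adjusted p = 0.0472) between genotypes at RT and 1.03 (SE 0.14, adjusted p = 0.00758) at TN. Ncf1, the cytosolic organiser p47phox, was at 0.609, 0.521 and 0.743 TPM in RT WT and 1.54, 0.973 and 1.52 in RT Txnip-/-. At TN, Ncf1 was at 1.33, 1.995 and 2.08 TPM in WT and 4.596, 4.88 and 3.298 in Txnip-/-. It was below the filter at RT, where the genotypes did not overlap, and its TN difference was 0.91 (SE 0.16, adjusted p = 0.0141), not called without TN Txnip-/- replicate 1 or 2.

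Resident-subset genes did not move as 1 group. At TN, 5 of the 7 had overlapping genotypes, 2 of 5 tested were called, and the median difference of the tested ones was 0.12, beside 0.01 for all genes tested. That median rested on single libraries, being 0.37 without TN WT replicate 1, -0.05 without TN WT replicate 2, 0.07 without TN WT replicate 3 and 0.23 without TN Txnip-/- replicate 1. Mrc1, the mannose receptor CD206, was at 2.19, 2.25 and 2.19 TPM in RT WT and 4.43, 3.46 and 4.39 in RT Txnip-/-. At TN, Mrc1 was at 5.67, 5.38 and 5.26 TPM in WT and 10.2, 10.7 and 8.49 in Txnip-/-. The 4 groups of Mrc1 did not overlap and its spread within groups was small, with 0.66 (SE 0.11, adjusted p = 0.039) at RT and 0.74 (SE 0.10, adjusted p = 0.00618) at TN. Clec10a, a galactose-type lectin, was at 1.71, 1.41 and 1.04 TPM in RT WT and 1.89, 1.42 and 2.27 in RT Txnip-/-. At TN, Clec10a was at 3.102, 2.52 and 3.14 TPM in WT and 5.104, 5.02 and 4.42 in Txnip-/-. Its genotypes overlapped at RT and were apart by 0.58 (SE 0.10, adjusted p = 0.0142) at TN. Of its windows, 10.2% also occur in the related gene Mgl2. Folr2, a folate receptor of perivascular macrophages, was at 1.92, 2.38 and 2.04 TPM in RT WT and 2.76, 1.73 and 2.97 in RT Txnip-/-. At TN, Folr2 was at 6.42, 2.95 and 3.91 TPM in WT and 4.31, 4.79 and 5.04 in Txnip-/-. It was higher at TN, with replicate 1 the highest TN WT library where most pan-macrophage genes had their lowest, and the genotypes overlapped at both temperatures, with 0.12 (SE 0.21, adjusted p = 0.768) between them at TN. The overlap at TN came from TN WT replicate 1 alone, without which the difference was 0.37 (adjusted p = 0.138) and not called. Of its windows, 58.6% also occur in Gm10602, which overlaps it on the opposite strand, so its level is uncertain.

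Cd163, the haemoglobin scavenger receptor, was at 1.596, 2.17 and 2.61 TPM in RT WT and 2.45, 2.41 and 3.96 in RT Txnip-/-. At TN, Cd163 was at 3.29, 2.34 and 2.48 TPM in WT and 1.81, 3.61 and 3.03 in Txnip-/-. All 4 groups overlapped, and the difference was 0.02 (SE 0.19, adjusted p = 0.959) at TN and 0.33 (SE 0.19, adjusted p = 0.45) at RT. Lyve1, a hyaluronan receptor of resident macrophages and also of lymphatic vessels, was at 1.63, 1.16 and 1.73 TPM in RT WT and 1.04, 1.46 and 1.93 in RT Txnip-/-. At TN, Lyve1 was at 2.05, 1.19 and 1.59 TPM in WT and 1.36, 1.59 and 2.01 in Txnip-/-. It showed the same overlap, with 0.03 (SE 0.16, adjusted p = 0.929) at TN and -0.02 (SE 0.16, adjusted p = 0.963) at RT. Timd4, a phosphatidylserine receptor of long-lived macrophages, stayed between 0.117 and 0.649 TPM, and Clec4f, a lectin of liver Kupffer cells, between 0 and 0.118 TPM, and neither was tested. Clec10a lost its TN call without TN Txnip-/- replicate 1 or 2.

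The ratio of each gene to Adgre1 in the same library describes this split. Lyz2 over Adgre1 was 16.1, 16.6 and 18.9 in RT WT, 24, 23.9 and 20.1 in RT Txnip-/-, 23.9, 15.5 and 22.6 in TN WT and 25.96, 26.8 and 22.2 in TN Txnip-/-. Cd163 over Adgre1 was 0.77, 1.03 and 1.33 in RT WT, 0.51, 0.94 and 0.85 in RT Txnip-/-, 0.96, 0.33 and 0.35 in TN WT and 0.14, 0.27 and 0.27 in TN Txnip-/-. Lyve1 over Adgre1 was 0.78, 0.55 and 0.88 in RT WT, 0.22, 0.57 and 0.41 in RT Txnip-/-, 0.6, 0.17 and 0.23 in TN WT and 0.11, 0.12 and 0.18 in TN Txnip-/-. For Cd163 the 3 TN Txnip-/- libraries were below all others, for Lyve1 they overlapped TN WT replicate 2, and in both TN WT replicate 1 lay within the RT range. Mrc1 over Adgre1 was 1.05, 1.08 and 1.12 in RT WT, 0.93, 1.34 and 0.95 in RT Txnip-/-, 1.65, 0.77 and 0.75 in TN WT and 0.79, 0.81 and 0.75 in TN Txnip-/-, where the 5 TN libraries other than TN WT replicate 1 were below the 6 RT libraries. A ratio shows unequal change and not that either gene stayed level. Mertk over Adgre1 had means of 2.48 in WT and 1.24 in Txnip-/- at RT, and of 0.889 and 0.447 at TN.

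**Figure D3:**
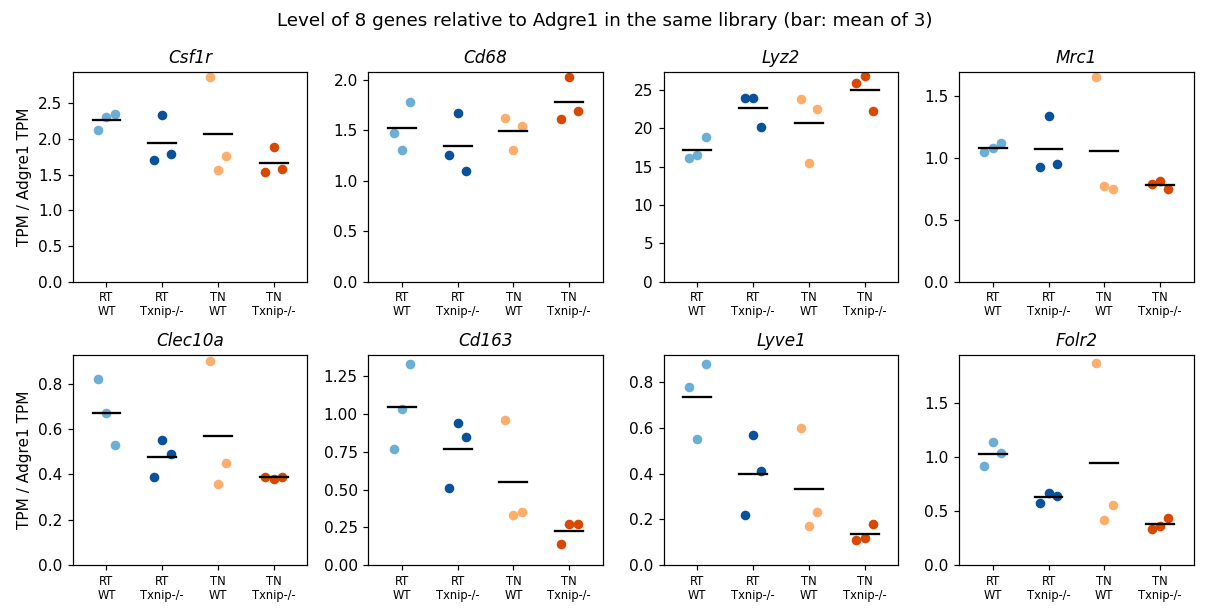
Ratio of the TPM of 8 members to that of Adgre1 in the same library, on linear axes from 0, with the mean of 3 libraries per group. Mean ratios of Cd163 go from 1.04 in RT WT to 0.227 in TN Txnip-/-, those of Cd68 lie between 1.34 and 1.78, and TN WT replicate 1 is the highest of its group in every panel.

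Monocyte genes were low at RT and failed the filter there. Ly6c2, the antigen of inflammatory monocytes, was at 0.491, 0.668 and 0.422 TPM in RT WT and 1.07, 1.03 and 1.15 in RT Txnip-/-. At TN, Ly6c2 was at 0.841, 2.69 and 2.56 TPM in WT and 7.74, 4.72 and 3.65 in Txnip-/-. Its genotypes did not overlap at either temperature. Plac8, a protein of monocytes and other white cells, was at 0.513, 0.785 and 0 TPM in RT WT and 1.11, 0.53 and 0.739 in RT Txnip-/-. At TN, Plac8 was at 0.988, 2.08 and 2.15 TPM in WT and 5.72, 5.96 and 3.47 in Txnip-/-. The genotypes of Plac8 overlapped at RT and not at TN, and the TN differences were 1.15 (SE 0.23, adjusted p = 0.0215) for Plac8 and 1.09 (SE 0.31, adjusted p = 0.0677) for Ly6c2, of which Plac8 was called and Ly6c2 was not. Ly6c2 and Aif1 were called at TN in 1 fit of 12 libraries and with the authors' log2 values, which also called Msr1 and did not call Clec10a. Plac8 was not called without TN Txnip-/- replicate 1 or 2, and 21.9% of the Ly6c2 windows also occur in Ly6c1, a gene of endothelium. Of the neutrophil genes, 0 of the 2 tested were called between genotypes at TN in limma, and 0 had an unadjusted p under 0.05. S100a8 and S100a9, the calcium-binding pair calprotectin, were measured in every library. S100a8 was at 1.499, 0.823 and 0.297 TPM in RT WT and 1.63, 0.954 and 0.604 in RT Txnip-/-. At TN, S100a8 was at 3.76, 2.63 and 2.47 TPM in WT and 5.39, 3.53 and 2.18 in Txnip-/-. The genotypes of S100a8 overlapped at both temperatures, and all TN libraries were above all RT libraries. S100a9 was at 1.38, 0.882 and 0.557 TPM in RT WT and 0.75, 0.307 and 0.544 in RT Txnip-/-. At TN, S100a9 was at 2.98, 3.21 and 1.39 TPM in WT and 7.84, 4.44 and 2.72 in Txnip-/-. The genotypes overlapped in S100a9 as well, with 0.21 (SE 0.24, adjusted p = 0.66) for S100a8 and 0.72 (SE 0.33, adjusted p = 0.215) for S100a9 at TN, and neither passed the filter at RT. Ly6g, which defines mouse neutrophils, was listed at 0 in 9 of the 12 libraries and was at most 0.160 TPM.

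Between temperatures, 27 members were called higher at TN in WT and 28 in Txnip-/-, from the same 12 libraries that the genotype comparisons used, and the counts were 17 of 21 and 24 of 27 among members with means of at least 1 TPM at both temperatures. Between RT WT and TN WT, the largest differences were those of Lyz2, 1.65 (SE 0.24, adjusted p = 0.000368), Tyrobp, 1.65 (SE 0.24, adjusted p = 0.000332), and Mpeg1, 1.63 (SE 0.25, adjusted p = 0.000504). Between RT Txnip-/- and TN Txnip-/- they were those of Itgb2, 1.97 (SE 0.26, adjusted p = 0.000115), Cd68, 1.92 (SE 0.19, adjusted p = 2.64e-05), and Mpeg1, 1.90 (SE 0.25, adjusted p = 0.000118). The neutrophil genes had RT means under 1 TPM in WT, as S100a9 had in Txnip-/-, and passed the filter there only through higher groups. Their differences were called in both genotypes, with S100a8 at 1.11 (SE 0.29, adjusted p = 0.00755) in WT and 1.16 (SE 0.29, adjusted p = 0.00552) in Txnip-/-, and S100a9 at 0.84 (SE 0.30, adjusted p = 0.035) and 1.89 (SE 0.30, adjusted p = 0.000367). Resident Mrc1 differed by 1.00 (SE 0.10, adjusted p = 5.97e-05) and 1.08 (SE 0.10, adjusted p = 1.63e-05) and Folr2 by 0.75 (SE 0.20, adjusted p = 0.00958) and 0.73 (SE 0.20, adjusted p = 0.0105). The 4 tested members not called in WT were Cd14, Mertk, Cd163 and Lyve1, and in Txnip-/- Mertk, Cd163 and Lyve1 were not called. In WT, S100a9 was not called with no filter on low values, without RT WT replicate 2 or 3 or TN WT replicate 1 or 2, or under upper-quartile scaling or median centring, and Ly6c2 was not called without TN WT replicate 2. The median of all genes tested was shifted by 0.18 in WT and 0.15 in Txnip-/-, and the share of higher among all called genes was 83.1% in WT and 78.9% in Txnip-/-, against 70.4% and 68.8% with upper-quartile scaling and 51.1% and 48.5% with median centring. With centring, 26 and 28 members were called higher and the member medians were 0.92 and 1.37. Without TN WT replicate 1, 27 members were called in WT. Markers of other cells also differed between temperatures: the T cell sum was 1.61 to 2.09 TPM in RT WT and 2.35 to 7.02 in TN WT, the NK cell sum 0.972 to 1.75 and 2.71 to 5.96, the fibroblast sum 133 to 171 and 219 to 279, and the endothelial sum 227 to 244 and 278 to 347. Between RT Txnip-/- and TN Txnip-/-, the fibroblast sums were 159 to 180 and 407 to 414 TPM and the endothelial sums 193 to 231 and 309 to 345. All 5 fibroblast genes were called higher at TN in both genotypes, and 3 of 5 endothelial genes in WT and 5 of 5 in Txnip-/-, while 4 of 7 brown adipocyte genes in WT and 5 of 7 in Txnip-/- were called lower, with Elovl3 among the 5 tested only through other groups, its TN Txnip-/- mean being 0.334 TPM. Their part in the temperature result was not tested.

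**Figure D4:**
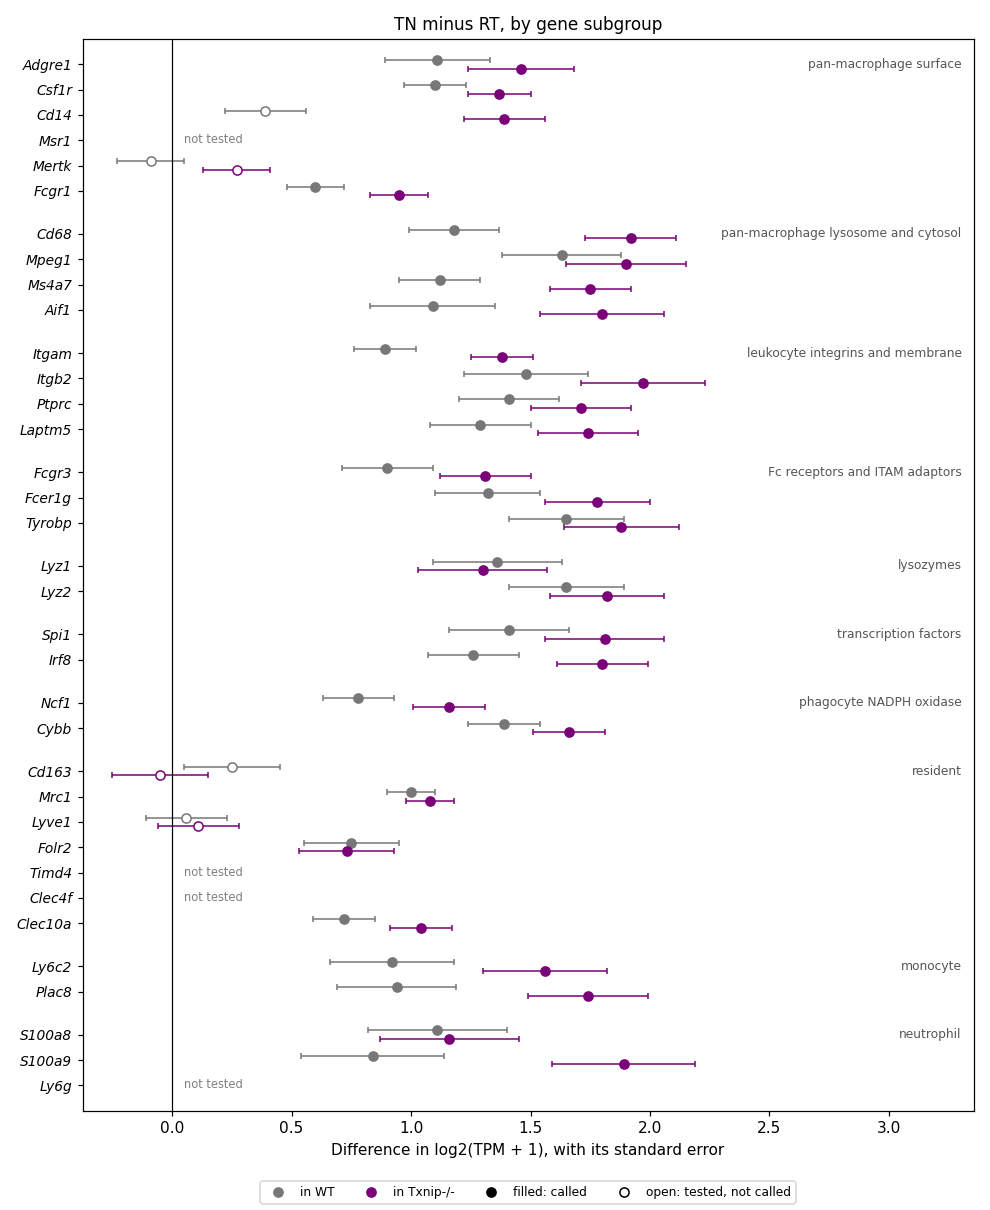
Difference between TN and RT for each member, as log2(TPM + 1) with its standard error, in WT (grey) and Txnip-/- (purple), grouped by role, with filled points for called genes. The 27 called genes in WT and the 28 in Txnip-/- lie to the right of 0, and Mertk, Cd163 and Lyve1 have open points in both genotypes.

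Whether the genotype difference depended on temperature was tested as the interaction on all 12 libraries. In limma, 0 of 31 tested members passed, beside 1 of 12486 genes (0.00801%), while an unadjusted p under 0.05 was found for 6 members and for 1571 genes in all. The difference was above 0 in 28 of the 31, with a median of 0.36 beside -0.02 for all genes tested, and in 19 of the 21 with a mean of at least 1 TPM in every group, with a median of 0.35. Without TN WT replicate 1 it was above 0 in 26 of 31 and the median was 0.20, and over the fits that left out each other library the median ran from 0.26 to 0.49. The 6 members, each with a larger genotype difference at TN than at RT, were Cd14 at 1.00 (SE 0.24, adjusted p = 0.157), S100a9 at 1.05 (SE 0.42, adjusted p = 0.348), Plac8 at 0.79 (SE 0.36, adjusted p = 0.389), Cd68 at 0.74 (SE 0.28, adjusted p = 0.316), Ms4a7 at 0.64 (SE 0.24, adjusted p = 0.327) and Itgam at 0.49 (SE 0.18, adjusted p = 0.317). Of these 6, only Cd14 and Cd68 had a mean of at least 1 TPM in every group. S100a9, Plac8, Ms4a7 and Itgam passed the filter only through groups where they were higher, so their values lend no support. As 0 members passed, the larger number of calls at TN than at RT is not shown to be a difference between the temperatures.

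The RT calls depended on nearly every library. The 8 called members were Mpeg1, Ms4a7, Itgb2, Ptprc, Tyrobp, Lyz2, Cybb and Mrc1. Without RT WT replicate 1, RT WT replicate 2, RT Txnip-/- replicate 1 or RT Txnip-/- replicate 3, 0 of them passed in limma, without RT WT replicate 3 only Mpeg1 did, and without RT Txnip-/- replicate 2 the count was 10, of which 6 were among the 8 and the others were Adgre1, Csf1r, Laptm5 and Lyz1. In 1 fit of 12 libraries the RT count was 11, with Csf1r, Fcgr3, Laptm5 and Lyz1 called and Itgb2 not. With no filter on low values 0 members were called at RT and 17 at TN, where Adgre1, Itgb2, Lyz1, Plac8, Ptprc and Spi1 were not called. At TN the count was 12 without TN Txnip-/- replicate 1 and 13 without TN Txnip-/- replicate 2, and the median difference of tested members was 1.00 and 0.98 in these, beside 1.05. Without TN WT replicate 1, the library with the lowest pan-macrophage levels of its group, 21 members were called at TN and the median was 0.82.

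Genes of other cell types moved beside the members. At TN, summed T cell markers (5 genes) were 2.35 to 7.02 TPM in WT and 9.82 to 14.4 in Txnip-/-, NK cell markers (5) 2.71 to 5.96 and 10.2 to 19.8, plasma cell markers (4) 2.57 to 4.77 and 15.3 to 18.1, dendritic cell markers (6) 11.4 to 13 and 16.5 to 18.5, and fibroblast markers (5) 219 to 279 and 407 to 414. B cell markers (5) were 4.20 to 5.12 and 4.95 to 10.2. Called higher were 1 of 4 tested T cell genes, 1 of 2 B cell, 1 of 2 NK, 1 of 2 plasma cell, 2 of 4 dendritic cell and 5 of 5 fibroblast genes, while in limma 0 of 5 endothelial and 0 of 5 general adipocyte genes were called, with 1 of each at an unadjusted p under 0.05, and 4 of 7 brown adipocyte genes were called lower. The T cell gene called, Cd4, and Siglech, 1 of the 2 dendritic cell genes, passed only through Txnip-/-, so these calls lend no support. At RT, skeletal muscle markers summed to 2.30 to 2.83 TPM in WT and 17.8 to 42.4 in Txnip-/-. All 5 were called higher, but 4 of them (Acta1, Myh4, Ckm and Tnnt3) had WT means under 1 TPM and passed only through Txnip-/-, which leaves Mylpf. The RT sums of T cell markers were 1.61 to 2.09 TPM in WT and 3.05 to 4.0 in Txnip-/-, those of NK cell markers 0.972 to 1.75 and 2.17 to 3.87, those of plasma cell markers 0.718 to 1.18 and 2.53 to 3.15, and those of dendritic cell markers 8.14 to 9.48 and 9.56 to 11.3, none of which overlapped. As single genes, 10.4% of all listed genes were higher in Txnip-/- at RT with no overlap. Most of the dendritic cell sum was Zbtb46, at means of 7.28 TPM in RT WT and 7.04 in RT Txnip-/-, whose genotypes overlapped. Of these 4 lists, the 1 plasma cell gene tested, Jchain, was called higher but passed only through Txnip-/-, at a mean of 0.378 TPM in WT, and the 1 gene tested of each other list was not called. The brown adipocyte genes Elovl3 and Cox7a1 were called lower. In TN Txnip-/- the muscle sum was 2.74 to 14.4 TPM, and 5 of 5 muscle genes were called lower than in RT Txnip-/-, of which Myh4 and Ckm had a TN mean under 1 TPM. Mast cell markers (5) summed to 0.921 to 6.62 TPM over the 12 libraries, red blood cell markers (5) to 480 to 1471, lymphatic markers (4) to 3.47 to 6.84 and lymph node stroma markers (4) to 0.686 to 5.07, and among these the 1 stroma gene tested was called higher in Txnip-/- at TN and the others were not called between genotypes. Ptprc, Itgb2, Itgam, Laptm5, Coro1a, Fcer1g, Plac8 and Irf8 are also expressed in other white cells. The part of these cell types in the result was not tested.

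A further list of 75 genes that act with the members was taken with earlier results of these data known. At TN, 52 were tested and 29 called higher in Txnip-/-, beside 6.49% of all genes tested. At RT, 30 were tested and 4 called higher, beside 0.76%. In limma, 0 were called lower at either, beside 2.17% at TN and 0.726% at RT, with 1 lower gene at TN, Nr4a1, and none at RT at an unadjusted p under 0.05. The 4 were also called at TN. Ccr2 and Pirb were at 0.951 and 0.548 TPM on average in RT WT and passed the RT filter only through Txnip-/-, so their RT calls lend no support. Among genes with means of at least 1 TPM in both genotypes, 2 of 24 were called at RT and 26 of 44 at TN. Ccr2, the receptor that brings monocytes out of the marrow, was at 1.13, 0.901 and 0.819 TPM in RT WT and 4.31, 2.52 and 2.71 in RT Txnip-/-. At TN, Ccr2 was at 4.21, 5.003 and 7.29 TPM in WT and 22.5, 14.7 and 14.6 in Txnip-/-. Ccr2 differed by 1.08 (SE 0.17, adjusted p = 0.0376) at RT and 1.49 (SE 0.21, adjusted p = 0.0077) at TN with no overlap between genotypes. Fcgr2b, the inhibitory IgG receptor, was at 2.24, 2.74 and 3.17 TPM in RT WT and 5.89, 4.91 and 6.2 in RT Txnip-/-. At TN, Fcgr2b was at 5.01, 6.33 and 6.04 TPM in WT and 16.7, 15.3 and 11.1 in Txnip-/-. Fcgr2b differed by 0.85 (SE 0.13, adjusted p = 0.0306) and 1.17 (SE 0.15, adjusted p = 0.00608), again with no overlap. Coro1a, an actin regulator of white cells, differed by 0.70 (SE 0.11, adjusted p = 0.0381) and 1.06 (SE 0.22, adjusted p = 0.0255), and Pirb, an inhibitory receptor, by 0.68 (SE 0.12, adjusted p = 0.0472) and 1.00 (SE 0.15, adjusted p = 0.00953). These 4 RT calls were lost, as those of the members were, without RT WT replicate 1 or 2. At TN, 13 of 16 tested ITAM and ITIM signalling genes (10 of 13 without Fgr, Btk and Hcst, which passed only through Txnip-/-) and 8 of 8 oxidase and actin genes were called, with Fcgr4, an activating IgG receptor, at 1.22 (SE 0.15, adjusted p = 0.00608), and Coro1a was not called without any 1 of TN WT replicate 1 or 2 or TN Txnip-/- replicate 1 or 2. Of the resident and efferocytosis genes, 1 of 8 tested was called at TN, and 1 of 6 among those with means of at least 1 TPM in both genotypes. Of other monocyte genes 1 of 5 was called, and of 12 neutrophil granule and receptor genes 0 of the 4 tested. An unadjusted p under 0.05 was found in limma for 3 of these resident genes, 3 of the monocyte genes, with Nr4a1 lower, and 2 of the neutrophil genes.

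Between temperatures, 38 of 43 tested genes of that list were called higher at TN in WT (31.4% of all genes) and 40 of 43 in Txnip-/- (30.9%). Called lower were 1 in WT (6.39% of all genes) and 0 in Txnip-/- (8.27%). Among genes of the list with means of at least 1 TPM at both temperatures, which leaves out Ccr2 in WT, 21 of 24 and 29 of 31 were called higher. The largest were Ccr2, 1.71 (SE 0.21, adjusted p = 0.000158) in WT and 2.12 (SE 0.21, adjusted p = 2.35e-05) in Txnip-/-, Coro1a, 1.59 (SE 0.20, adjusted p = 0.000162) and 1.95 (SE 0.20, adjusted p = 2.53e-05), Gas6, a ligand of Mertk, 1.31 (SE 0.11, adjusted p = 2.82e-05) in WT, and Lilrb4a, an inhibitory receptor, 1.84 (SE 0.18, adjusted p = 2.35e-05) in Txnip-/-. The ligands of Csf1r, chosen after their values were seen, were called between temperatures and not between genotypes. Csf1 was at 2.24, 2.47 and 2.63 TPM in RT WT and 3.14, 2.44 and 3.08 in RT Txnip-/-. At TN, Csf1 was at 6.05, 8.04 and 6.202 TPM in WT and 7.92, 9.23 and 10.02 in Txnip-/-. The genotypes of Csf1 overlapped and the temperatures did not, with 1.16 (SE 0.12, adjusted p = 6.92e-05) for TN against RT in WT, 1.37 (SE 0.12, adjusted p = 1.3e-05) in Txnip-/- and 0.38 (SE 0.12, adjusted p = 0.0984) for genotype at TN. Il34 differed by 0.45 (SE 0.14, adjusted p = 0.016), 0.68 (SE 0.14, adjusted p = 0.0015) and 0.26 (SE 0.11, adjusted p = 0.182) in these. Without TN WT replicate 2, Csf1 was called between genotypes at TN, and Il34 was not called between temperatures in WT without that library, RT WT replicate 1 or TN WT replicate 3.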

How the data were processed

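RNA from BAT was poly-A selected, sequenced and aligned by the authors with STAR 2.7.5a to mm10, and reads over exons were counted with HOMER 4.11.1 and condensed to 1 transcript per gene. The handling of strand and of reads that fit several places is not given in the sources used here. The deposited tables hold TPM for 12 libraries and, for each temperature, log2 values of 6 libraries that the authors normalised with DESeq2, in which 8 RT and 9 TN members stand for another transcript than in the TPM table. Columns of the authors' fold changes and p-values were not used. Read counts were not analysed here, so the count test of the methods was replaced by the moderated test of limma 3.58.1 (R 4.3.3) with an expression trend on log2(TPM + 1), and each difference is on that scale, which understates the change of low genes.

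Genes with a mean of at least 1 TPM over the fitted libraries were tested, p-values were adjusted by the Benjamini-Hochberg method over all of them, and a call needed an adjusted p under 0.05 and a fold above 1.25 or below 0.8 (for the interaction, the adjusted p alone). Genotype was compared within each temperature on 6 libraries, and temperature and the interaction on 12. Fits were tested on simulated data first. Windows of 75 bases were matched between spliced transcripts of the reference annotation. Tables and plots were made with Python 3.11.15, pandas 2.3.3 and matplotlib 3.10.9.

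Members and lists were chosen with earlier results of these data known. Values in every library were given for each member called in at least 1 comparison, which includes the 2 highest of each subgroup that was tested, and from the related list those called at both temperatures and the 3 largest called changes of each sign per comparison were named, but for 1 gene that is not reported here. Alternatives were a pseudocount of 0.1, no filter on low values, upper-quartile scaling, median centring, the replicate number as a block, an adjusted p under 0.1, 1 fit of 12 libraries, the authors' log2 values, and leaving out each library.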

Additional observations from a re-analysis of the deposited data

How the results depend on the processing

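The number of members called higher in Txnip-/- at RT, 8, was 0 with no filter on low values, where more genes were tested, 3 with the replicate number as a block (Mpeg1, Lyz2 and Tyrobp) and 15 at an adjusted p under 0.1, and ranged from 0 to 10 over the fits that left out 1 library, and the cause of these changes was not tested. At TN the number, 23, was 17 with no filter and ranged from 12 to 24 over such fits. For TN against RT it ranged from 25 to 28 in WT and from 27 to 28 in Txnip-/-, and for the interaction it was 0 in every fit. All called members were higher in every setting run. Calls over all genes at RT, 178, numbered 44 with no filter, 100 with the block, 272 in 1 fit of 12 libraries, 354 at an adjusted p under 0.1 and 2 to 159 with 1 library left out. At TN they numbered 1116, against 621 with no filter and 456 to 1005 with 1 library left out. The interaction had 1 call, against 4 with the block, 25 at an adjusted p under 0.1 and 1 to 6 with 1 library left out. Libraries with the same number were not treated as pairs, since the labels tie them by number alone and not every correlation passed 0.1: the correlation of their deviations from the group means ran from -0.022 to 0.297 at RT and from -0.036 to 0.042 at TN, and 4 of 6 and 2 of 6 libraries correlated best with their own number. Some values did go with the number: at TN the muscle sums were 14.2 and 14.4 TPM in replicate 2 of WT and Txnip-/- and 2.13 to 3.30 in the other libraries, the red blood cell sums 1222 and 1471 and 480 to 762, and at RT Nr4a1 was 362 and 77.2 TPM in replicate 1 and 3.44 to 11.7 in the others. With the replicate block, 24 members were called at TN (Aif1 at 0.96, adjusted p = 0.0467, and S100a9 at 0.72, adjusted p = 0.0488, gained and Lyz1 at 1.07, adjusted p = 0.0613, lost in limma), 27 for temperature in WT, 28 in Txnip-/- and 0 for the interaction. In the temperature fits the block joined RT and TN libraries by replicate number alone, and the correlations above were within each temperature. Those fits therefore check no known pairing.

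Changes of sign occurred only in values that were not called under either setting. With 1 library left out, the difference at RT ran from -0.08 to 0.18 in Il34, -0.15 to 0.11 in Lyve1 and -0.25 to 0.01 in Mertk. At TN it ran from -0.13 to 0.23 in Cd163, -0.08 to 0.37 in Folr2, -0.09 to 0.15 in Lyve1 and -0.05 to 0.46 in S100a8. For TN against RT it ran from -0.06 to 0.17 in Lyve1 and -0.21 to 0.04 in Mertk in WT, and from -0.20 to 0.15 in Cd163 and -0.02 to 0.24 in Lyve1 in Txnip-/-. The authors' log2 values gave -0.01 for Il34 at RT, median centring gave -0.01 for Cd163 and Lyve1 at TN and -0.13 and -0.08 for Lyve1 between temperatures in WT and Txnip-/-, and upper-quartile scaling gave -0.01 for Lyve1 in WT. The tables used here hold no counts, and no counting interval is given for genes under 1 TPM such as Timd4, Clec4f and Ly6g.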

Other observations

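Receptors for the granulocyte-macrophage factor, chosen after their values were seen, were called higher in Txnip-/- at TN. Csf2ra, the binding chain, was at 3.35, 3.72 and 3.92 TPM in RT WT and 8.36, 5.23 and 6.42 in RT Txnip-/-. At TN, Csf2ra was at 6.19, 10.6 and 9.61 TPM in WT and 17.4, 23.1 and 15.6 in Txnip-/-, a difference of 1.02 (SE 0.20, adjusted p = 0.0207) by limma. The shared signalling chain Csf2rb differed by 0.72 (SE 0.18, adjusted p = 0.0474) and its mouse copy Csf2rb2 by 0.90 (SE 0.11, adjusted p = 0.00608). The ligand Csf2 was at or under 0.118 TPM in every library. The receptor of the neutrophil factor, Csf3r, differed by 0.35 (SE 0.13, adjusted p = 0.137) and was not called.

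Nr4a1, a transcription factor of patrolling monocytes that many cells also make on stimulation, was at 362, 11.7 and 5.32 TPM in RT WT and 77.2, 3.44 and 4.21 in RT Txnip-/-. At TN, Nr4a1 was at 40.1, 22.3 and 30.2 TPM in WT and 15.2, 16.1 and 24.99 in Txnip-/-. RT WT replicate 1 held the highest level of Nr4a1 among the 12 libraries.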
